A study of Mus musculus with 4 samples.

Results

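Malat1, Neat1, Gm26870, Gm26917 and Gm42418 are 5 of the 31053 genes in each count table, and all 5 are annotated as long noncoding RNAs. They were picked by name because their share of the reads had been seen to differ in cells with a high percentage of mitochondrial UMIs in these same libraries. Every value below is therefore a description, with no test. All 5 genes had UMIs in all 4 libraries, and no member was lost to a filter. The mitochondrial percentage was the only sign of damage measured, since the tables hold no viability readout and dead cells had been removed before capture.

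The study asked how removal of adipose stromal cells changes a prostate tumor and the fat next to it. Mice labelled "VFB", which the methods give as FVB, were fed chow and carried subcutaneous grafts of MycCaP, a mouse prostate cancer cell line derived from Hi-Myc mice. They received PBS as control or D-CAN, a peptide that homes to adipose stromal cells and carries a cell-killing amphipathic sequence. Cells of the whole tumor and stromal and vascular cells of subcutaneous adipose tissue (SAT) were taken at the end of treatment. Each of the 4 groups (tumor control, tumor D-CAN, SAT control, SAT D-CAN) is 1 library, so a difference between groups is a difference between libraries. The age of the mice, and whether a library pools mice, are not given in the sources used here.

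The tables held 2830 and 1525 tumor cells (control, D-CAN) and 2851 and 1922 SAT cells, with a median of 3498, 4855, 1700 and 2920 UMIs per cell. Cells with at least 20% of their UMIs from mitochondrially encoded genes (mt- genes), called high-mt here, numbered 776, 331, 159 and 239. Cells under 10%, called low-mt, numbered 1610, 998, 2440 and 1534. High-mt cells were shallow: the median number of UMIs not from mt- genes was 1052 against 5267 in tumor control and 968 against 7032 in tumor D-CAN. It was 493 against 1764 in SAT control and 520 against 3068 in SAT D-CAN. A share below is the percentage that a gene makes up of all UMIs not from mt- genes in a set of cells, so mitochondrial RNA itself cannot lower it. Classes of cells come from counts of marker genes, and 91.1% of low-mt cells but 50.1% of high-mt cells could be assigned in tumor control. Between 0 and 2 cell barcodes were shared by each pair of libraries.

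Malat1 is retained in the nucleus, where it gathers in speckles that store splicing factors. Neat1 is the scaffold of paraspeckles, nuclear bodies that hold RNA and proteins back from the cytoplasm. Ribosomal RNA comes from tandem repeats transcribed in the nucleolus, and major satellite repeats form the heterochromatin beside mouse centromeres. A cell with a broken membrane is known to lose cytoplasmic RNA while organelles and nucleus stay behind, which is why a high mitochondrial percentage is often used to set such cells aside.

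By position the 5 RNAs fall into 3 groups. Malat1 (ENSMUSG00000092341, chr19:5795690-5802672, minus strand of GRCm38) and Neat1 (ENSMUSG00000092274, chr19:5824708-5845478, minus strand) are neighbours, with 22035 bases between them. Gm26917 (ENSMUSG00000097971, chr17:39843013-39846341) and Gm42418 (ENSMUSG00000098178, chr17:39846958-39848788) lie 616 bases apart on the plus strand. RefSeq (GRCm38.p6) gives Gm42418 as a synonym of Rn18s-rs5, a pseudogene named for 18S ribosomal RNA, at chr17:39846354-39848202. For Gm42418 the annotation thus points to ribosomal RNA sequence, and the name nuclear RNA is not borne out by it. AY036118 overlaps Gm42418 on the opposite strand, and 49.8% of the 25-base words of Gm42418 are found in it on that strand. None of the 1807 words of Gm42418 is found in Gm26917, which is placed at this locus by position alone. Gm26870 (ENSMUSG00000097312, chr9:3000282-3038313, minus strand, 2 exons in its longest transcript) lies at the start of the assembled chromosome 9.

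The libraries were primed with oligo-dT, so a stretch rich in A can be copied as if it were a tail. The 20 bases richest in A of each longest transcript are therefore shown in capitals within 60 bases (5′ to 3′, GENCODE vM21 transcripts on GRCm38), at chr19:5795960-5796019, chr19:5834078-5834137, chr9:3038207-3038266, chr17:39845136-39845195 and chr17:39847147-39847206 in this order.
Malat1: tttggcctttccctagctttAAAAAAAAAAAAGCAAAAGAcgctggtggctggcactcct
Neat1: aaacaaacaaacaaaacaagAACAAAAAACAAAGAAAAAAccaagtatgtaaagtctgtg
Gm26870: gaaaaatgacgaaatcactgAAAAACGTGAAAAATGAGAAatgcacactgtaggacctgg
Gm26917: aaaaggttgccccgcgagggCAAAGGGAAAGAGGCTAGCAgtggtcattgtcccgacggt
Gm42418: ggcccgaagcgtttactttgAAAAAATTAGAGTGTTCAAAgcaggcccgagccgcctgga
Malat1 and Neat1 each held 17 A in such a window, a number that 5.41% of 141733 transcripts reach. The windows of Gm26870, Gm26917 and Gm42418 held 13, 9 and 11 A, which 43.7%, 95.4% and 77.7% of transcripts match. A stretch with 17 A was thus present in the 2 speckle and paraspeckle RNAs. The RNAs of the ribosomal RNA locus held none above the common run of transcripts. Transcripts were not matched for length: Malat1 and Neat1 have 6983 and 20771 bases, against 1170, 3329 and 1831 in Gm26870, Gm26917 and Gm42418. The longest unbroken run of A was 12 bases in Malat1 and 7 in Neat1, against 6, 4 and 6 in the others. Whether reads began at these stretches cannot be seen from counts per gene.

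Gm26870 is built of a repeat. The following 234 bases (chr9:3024332-3024565, minus strand, GRCm38) are shown because the rest of the transcript returns to them, and capitals mark each base that equals the base 234 positions further on.
Gm26870 repeat: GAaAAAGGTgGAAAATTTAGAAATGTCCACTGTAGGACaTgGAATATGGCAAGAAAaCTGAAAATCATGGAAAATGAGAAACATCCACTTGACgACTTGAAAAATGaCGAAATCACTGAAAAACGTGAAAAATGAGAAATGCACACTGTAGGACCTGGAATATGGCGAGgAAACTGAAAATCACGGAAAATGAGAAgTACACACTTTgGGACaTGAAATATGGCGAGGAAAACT
In this unit 95.3% of bases equal those of the next, and over the whole transcript 78.3% do, against a median of 30.4% over all other distances. This is the unit length of the mouse major satellite. Gm26870 shared 14.8% to 55.2% of its 783 words of 25 bases with each of 11 other genes of satellite loci, all on the opposite strand. Those 11 genes together held 0 to 8 UMIs in each mitochondrial bin of a library, so few counted UMIs went to them. Reads that match several copies may have been left out.

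Malat1 was higher in high-mt cells of every library, from 20% mitochondrial UMIs on. In tumor control it made up 3.56% of non-mitochondrial UMIs in cells under 5%, 3.17% at 5 to 10%, 4.02% at 10 to 20%, 10.8% at 20 to 40% and 9.59% at 40% or more. Tumor D-CAN gave 2.96%, 2.65%, 3.04%, 8.45% and 8.99% in the same bins. Over all classes the level was thus near flat below 20% in the tumor and stepped up above it. From under 5% to 10 to 20%, cancer cells went from 3.10% to 3.75% in control and from 2.62% to 2.965% in D-CAN. Myeloid cells went from 3.93% to 6.18% and from 3.43% to 5.42%, and stromal cells of control from 4.05% to 7.03%. With each cell thinned to 300 non-mitochondrial UMIs, cells with at least 10% Malat1 made up 16.9% and 14.8% of tumor control and D-CAN cells at 10 to 20%.
The SAT libraries started from a higher share. SAT control gave 5.56%, 4.38%, 5.10%, 9.89% and 7.27%, and SAT D-CAN gave 4.50%, 4.04%, 6.52%, 10.99% and 8.19%. In both SAT libraries and in tumor control, the bin with the most mitochondrial RNA lay below the bin of 20 to 40%, and in tumor D-CAN it lay slightly above. Cancer cells alone went up between these bins, from 10.99% to 12.1% in control and from 8.915% to 11.2% in D-CAN. Tumor cells assigned to no class went down, from 10.4% to 7.82% and from 7.35% to 6.09%. They made up 264 of the 375 tumor control cells at 40% or more. T or NK cells of SAT D-CAN went from 9.81% to 7.32%.
Single cells were then thinned to 300 non-mitochondrial UMIs each. The share of thinned cells with at least 10% Malat1 was 4.98% under 5% mitochondrial UMIs and 41.6% at 20 to 40% in tumor control. It was 5.22% and 41.7% in tumor D-CAN, 19.2% and 42.9% in SAT control, and 5.07% and 59.6% in SAT D-CAN. The shift did not include every cell: at 20 to 40%, the 10th percentile of cells still lay at 1.75%, 1.69%, 1.03% and 5.24% Malat1 without thinning. At 40% or more, 8.53%, 11.8%, 5% and 5.13% of cells had no Malat1 UMI before thinning, against 0.569%, 3.36%, 0.756% and 1.01% under 5%. These cells were also shallower. With each cell thinned to 300 non-mitochondrial UMIs the shares were 4.97%, 9.68%, 3.85% and 2.13% at 40% or more (93, 49, 14 and 31 cells left out) against 3.698%, 8.96%, 2.12% and 2.43%, with overlapping intervals in each library.

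**Figure D1:**
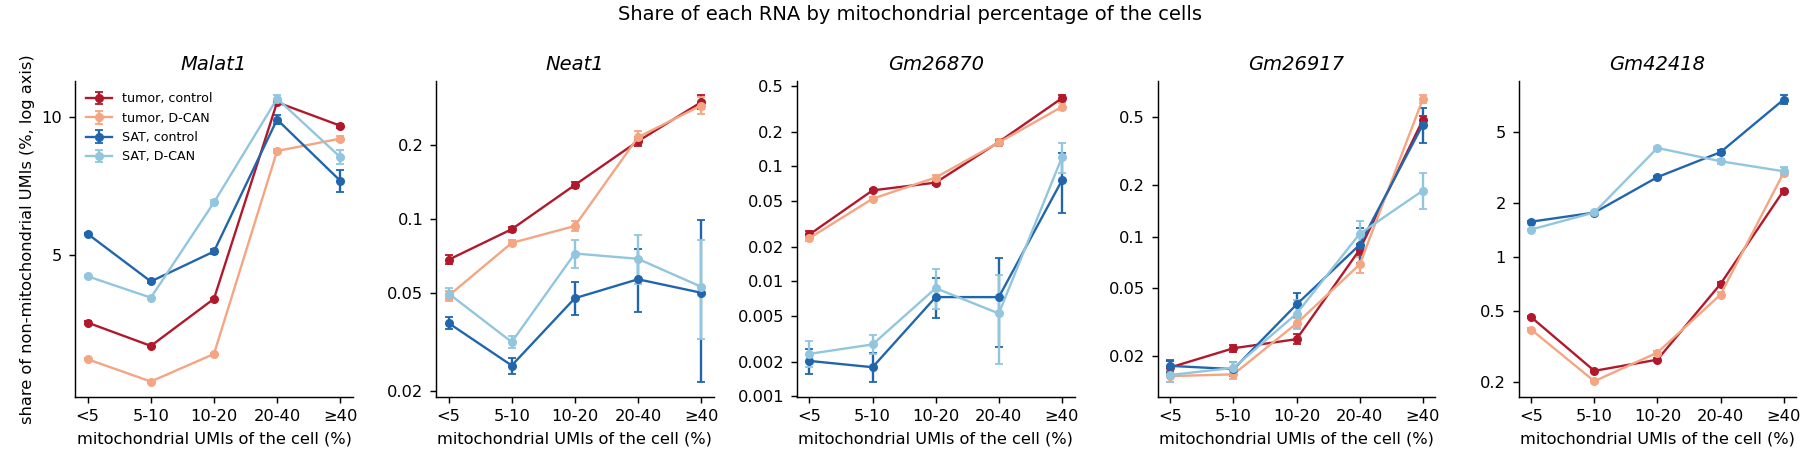
Share of each RNA among non-mitochondrial UMIs (%, log axis) in cells grouped by mitochondrial percentage (x axis), for the 4 libraries, with exact 95% counting intervals as bars. Malat1 climbed to 8.45% or more in each library at 20 to 40%, Neat1 and Gm26870 climbed in the tumor libraries, and Gm26917 climbed in all 4.

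Neat1 was higher in the high-mt cells of the tumors, bin by bin. In tumor control it stood at 0.0685%, 0.0912%, 0.138%, 0.208% and 0.299% over the 5 bins, and in tumor D-CAN at 0.0489%, 0.0802%, 0.0940%, 0.216% and 0.290%. Unlike Malat1 it was already climbing below 10% over all classes. From under 5% to 5 to 10%, cancer cells went from 0.0825% to 0.0943% in control and from 0.0662% to 0.0849% in D-CAN. Myeloid cells went from 0.0377% to 0.0363% and from 0.0312% to 0.0267%. In control, stromal cells went from 0.0412% to 0.0364% and endothelial cells from 0.017% to 0.033%. The part of class mix was not tested. In SAT, Neat1 stayed between 0.0254% and 0.0726% in all bins of both libraries, with no steady course.

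Gm26917 was higher in the high-mt cells of every library, with its largest fold step above 40% in 3 of them. Tumor control gave 0.0172%, 0.0223%, 0.0252%, 0.0842% and 0.482%, and tumor D-CAN gave 0.0153%, 0.0157%, 0.0311%, 0.0689% and 0.637%. SAT control gave 0.0176%, 0.0168%, 0.0402%, 0.0898% and 0.453%, and SAT D-CAN gave 0.0156%, 0.0171%, 0.0355%, 0.104% and 0.186%. The 4 libraries lay close together up to 40% and parted above it, where SAT D-CAN was lowest.
The number of cells with a UMI moved the same way. After each cell was thinned to 300 non-mitochondrial UMIs, 4.69% of tumor control cells under 5% and 56.0% of those at 40% or more held Gm26917, with 93 of 375 cells left out as too shallow. Without thinning these shares were 30.9% and 63.5%. No class is known to lack this RNA, so no background share of cells is given.

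Over all classes Gm42418 followed another course, with high values at both ends in the tumors. From under 5% to 5 to 10%, cancer cells went from 0.213% to 0.172% in control and from 0.1845% to 0.154% in D-CAN. Cells of no class went from 0.387% to 0.241% and from 0.288% to 0.169%. Myeloid cells rose from 0.933% to 1.16% and from 0.827% to 0.981%. In control, stromal cells rose from 0.507% to 1.34% and endothelial cells from 0.670% to 1.08%. The part of class mix was not tested. With all classes together, tumor control gave 0.459%, 0.230%, 0.265%, 0.706% and 2.36% over the 5 bins. Tumor D-CAN gave 0.391%, 0.201%, 0.291%, 0.615% and 2.97%. SAT levels were higher throughout, at 1.58%, 1.77%, 2.81%, 3.88% and 7.65% in SAT control and 1.43%, 1.78%, 4.09%, 3.45% and 3.03% in SAT D-CAN. The 2 RNAs of the ribosomal RNA locus did not keep a fixed ratio. Tumor control held 26.6 Gm42418 UMIs per Gm26917 UMI under 5% and 4.89 at 40% or more, and SAT control held 89.6 and 16.9.

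Gm26870 was higher in high-mt cells of the tumors. Tumor control gave 0.0256%, 0.0618%, 0.0722%, 0.163% and 0.392% over the 5 bins, and tumor D-CAN gave 0.0238%, 0.0523%, 0.0800%, 0.162% and 0.330%. In cancer cells alone it went from 0.0392% under 5% to 0.0647% at 5 to 10% in control, and from 0.0410% to 0.0571% in D-CAN. In SAT it was near 0.002% under 10% (0.00203% and 0.00179% in control, 0.00234% and 0.00282% in D-CAN) and 0.0754% and 0.120% at 40% or more. The SAT values rest on few cells. Of 51 Gm26870 UMIs in high-mt SAT D-CAN cells, 34 lay in 1 cell, and of 18 in SAT control, 9 lay in 2 cells. The tumor values did not, with 2791 UMIs spread over 398 of 776 high-mt cells in control and 1527 over 148 of 331 in D-CAN.

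Mixing of cell classes cannot be seen in whole libraries, so high-mt and low-mt cells were compared within marker-gated classes. Of all class and library pairs, 8 had at least 20 cells on each side. A gene is called higher here when its share was at least 2-fold higher in high-mt cells, the ratio being read against the share of all genes tested that passed the same mark. All genes tested had at least 100 UMIs over both sides, a floor not set for calls of the 5 RNAs. Gm26870 outside cancer cells and Gm26917 in tumor control stromal cells lay under this floor. Their ratios there are thus set against genes with more UMIs. In cancer cells (Krt8, Krt18, Epcam, Cldn3 and other epithelial markers) that share was 18.2% of 7105 genes in control and 22.3% of 6861 in D-CAN, and all 5 RNAs were called in both libraries. Malat1 made up 11.2% of UMIs in 322 high-mt cancer cells of tumor control and 3.08% in 727 low-mt ones, a ratio of 3.62 (95% counting interval 3.597 to 3.651). In tumor D-CAN it was 9.50% in 130 cells and 2.65% in 424, a ratio of 3.59 (3.55 to 3.62). The ratios of control and D-CAN thus lay close together for Malat1. Neat1 gave 2.36 and 2.73, Gm26870 3.14 and 3.78, Gm26917 4.76 and 8.38, and Gm42418 3.54 and 4.84.
Among all genes of tumor control cancer cells, ordered from the highest ratio down, Gm26917 stood at place 10, Malat1 at 47, Gm42418 at 57, Gm26870 at 126 and Neat1 at 665 of 7105. In D-CAN the places were 3 for Gm26917, 13 for Gm42418, 75 for Gm26870, 108 for Malat1 and 488 for Neat1 of 6861. Neat1 was thus the least set apart from other genes.

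In cancer cells the mean counts per cell of Malat1, Neat1, Gm26870 and Gm42418 were lower in high-mt cells, while their shares were higher. The median cancer cell of tumor control held 235 Malat1 UMIs when high-mt and 289 when low-mt, while its median non-mitochondrial total was 2302 against 11528. In tumor D-CAN these were 265.5 and 398.5 Malat1 UMIs on totals of 2764 and 18753. Median Gm42418 UMIs were 14 against 21 in control and 19 against 29 in D-CAN, and Gm26870 and Gm26917 had 1 to 2.5 on either side. Median Neat1 UMIs were 4 against 6 and 4.5 against 8. Mean Gm26917 UMIs were 2.42 per high-mt and 2.28 per low-mt cancer cell in control and 5.05 and 3.01 in D-CAN, so this RNA stood apart.

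Myeloid and stromal cells of the tumors showed weaker Malat1 ratios than cancer cells, and Gm26870 ratios above 20 that rest on few UMIs. In tumor control myeloid cells (43 high-mt, 514 low-mt; 9.90% of all genes called) Malat1 was 10.2% against 4.01%, a ratio of 2.54. Neat1 there had a ratio of 6.76, Gm26917 17.5, Gm42418 2.26 and Gm26870 44.7, the last from 64 UMIs against 35. In tumor control stromal cells (20 against 149; 6.61% of genes called) Malat1 had 1.39, Neat1 2.02 and Gm42418 5.08. Gm26917 had 36.5 there, from 47 UMIs against 41, and Gm26870 had 45.5, from 10 UMIs against 7. In tumor D-CAN myeloid cells (22 against 329; 8.84% of genes called) the ratios were 1.94 for Malat1, 2.22 for Neat1, 20.6 for Gm26870, 5.11 for Gm26917 and 2.65 for Gm42418.
Cancer markers moved with these values. The 9 cancer markers summed to 0.0559% of UMIs in high-mt and 0.0219% in low-mt myeloid cells of tumor control, with 4 and 5 of the 9 detected. They summed to 0.0825% and 0.0110% in stromal cells of tumor control (4 of 9 each) and to 0.0667% and 0.0129% in myeloid cells of tumor D-CAN (4 and 5 of 9). The 9 myeloid markers of the myeloid cells went the other way, from 3.65% to 0.818% in control and from 3.39% to 1.497% in D-CAN. What part this has in the Gm26870 and Gm26917 ratios was not tested.

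In SAT, Malat1 and Gm26917 were higher in the lymphocytes, where many other genes also passed the mark. In SAT control T or NK cells (44 high-mt, 587 low-mt; 34.0% of genes called) Malat1 was 8.78% against 3.97%, a ratio of 2.21, with 3.67 for Neat1, 5.87 for Gm26917 and 1.69 for Gm42418. In SAT D-CAN T or NK cells (104 against 587; 35.6% called) Malat1 was 9.11% against 3.31%, a ratio of 2.75, with 1.81 for Neat1, 4.37 for Gm26917 and 1.10 for Gm42418. In SAT D-CAN B cells (26 against 566; 33.6% called) Malat1 was 11.9% against 4.61%, a ratio of 2.58, with 3.80 for Neat1, 5.48 for Gm26917 and 0.912 for Gm42418. The Neat1 and Gm26917 ratios of these pairs rest on few high-mt UMIs. High-mt cells under 1000 non-mitochondrial UMIs (40 of 44, 91 of 104 and 25 of 26) held 12, 16 and 11 Neat1 UMIs. They held 30, 57 and 8 Gm26917 UMIs. Malat1 stood at place 577 of 2010, 455 of 2692 and 426 of 1930 genes, so many other genes had larger ratios. Gm26917 stood at 5, 64 and 33. Of 77 ribosomal protein genes, 72, 72 and 76 were at least 2-fold lower in high-mt cells, against 11.4%, 9.03% and 19.5% of all genes. Their median log2 ratios were -1.595, -1.80 and -1.93. With ribosomal protein genes left out of the total, fewer pairs were called for Malat1, as given in the part on processing. Their part in the ratios of single pairs was not tested.
Markers of other cells moved with these lymphocytes too, on few UMIs. In T or NK cells of SAT D-CAN the 7 endothelial markers summed to 0.0208% of UMIs in high-mt and 0.00480% in low-mt cells (3 and 5 detected), and the 4 red blood cell markers to 0.0180% and 0.00263% (3 each). The 9 myeloid markers there summed to 0.0512% and 0.0252%. In B cells of SAT D-CAN the red blood cell markers summed to 0.0281% and 0.00416%, from 4 and 67 UMIs, and in T or NK cells of SAT control to 0.00737% and 0.00158%, from 2 and 29. The lymphocytes' own markers were higher in high-mt cells as well, at 0.720% against 0.492%, 1.09% against 0.640% and 0.822% against 0.452% in this order. Their part in the ratios was not tested.
Gm26870 could not be followed in these cells, with 0, 1 and 0 UMIs in the high-mt T or NK cells of control and D-CAN and in the B cells. A count of 0 allows a share of up to 0.0111% in the first and 0.0211% in the last, above their low-mt shares of 0.000273% and 0.000683%.
Over the 8 pairs, the ratio reached 2 in 8 for Gm26917 (4.37 to 36.5), 7 for Neat1 (1.81 to 6.76), 6 for Malat1 (1.39 to 3.62), 5 for Gm42418 (0.912 to 5.08) and 5 for Gm26870.

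**Figure D2:**
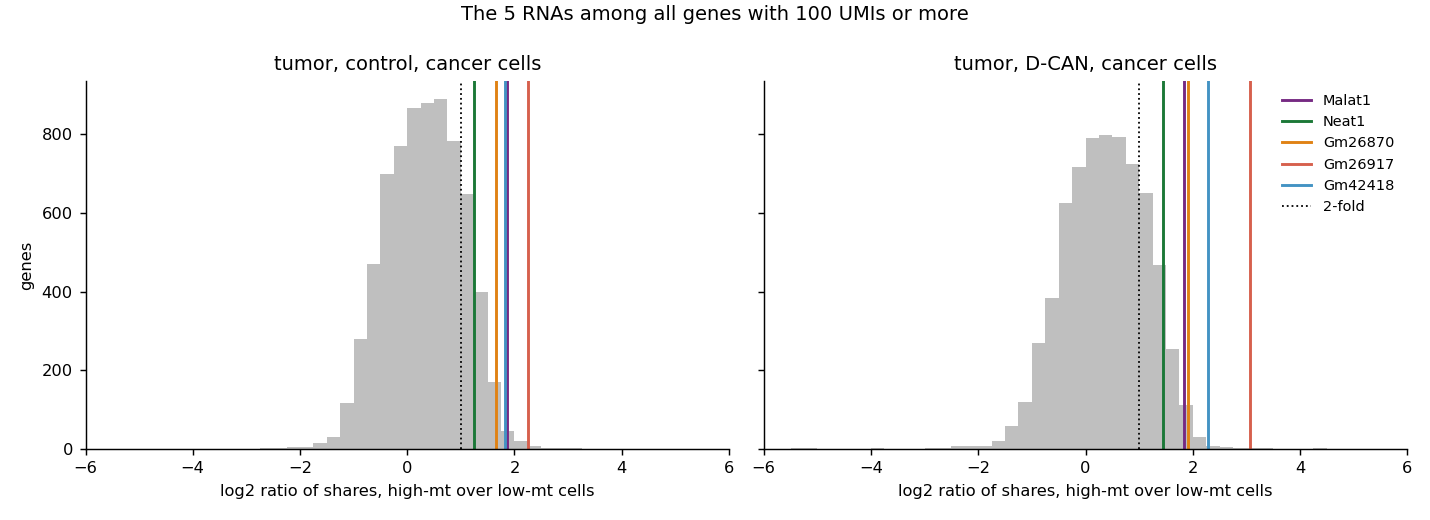
Number of genes (y axis) by the log2 ratio of high-mt to low-mt shares (x axis) in cancer cells of tumor control and tumor D-CAN, with the 5 RNAs as coloured lines and 2-fold as a dotted line. All 5 lines lay right of 2-fold in both panels, Gm26917 farthest out and Neat1 nearest.

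Depth differed between high-mt and low-mt cells, and the share of some RNAs follows depth. Among low-mt tumor control cells, Gm42418 fell from 1.91% in cells under 1000 non-mitochondrial UMIs to 1.16%, 0.690%, 0.295% and 0.150% in bins of 1000 to 2500, 2500 to 5000, 5000 to 10000 and above. Its median count per cell changed far less than depth over these bins, at 11, 16, 21, 21 and 22 UMIs. High-mt cells of the same library gave 3.55%, 1.09%, 0.554% and 0.364% over the first 4 bins, with 14, 14, 13 and 15 UMIs per cell. Tumor D-CAN went from 2.70% to 0.154% in low-mt cells. In SAT the count per cell climbed with depth, with a median of 13, 31, 52, 73 and 105 UMIs in low-mt SAT control cells, and the share fell from 2.37% to 0.966%. Single cells of tumor control were also ranked after thinning each to 300 non-mitochondrial UMIs, with 93 cells left out as too shallow. The cells kept (n = 2737) were all from 1 library. Across them the Spearman correlation of the thinned Gm42418 count was -0.71 with depth before thinning and 0.19 with mitochondrial percentage.
Malat1 fell less with depth, from 6.52% to 4.58%, 3.69%, 3.46% and 3.02% in low-mt tumor control cells. High-mt cells held 6.56%, 11.6%, 12.2% and 9.90% in the first 4 bins. With classes mixed in each bin, the 2 sides were level in the shallowest cells and far apart in deeper ones. Among cancer cells under 1000 UMIs in tumor control, Malat1 was 6.95% in 54 high-mt and 2.45% in 3 low-mt cells.
The counts per cell at matched depth were higher in high-mt cells for Malat1 from 1000 UMIs on, with a mean of 192.5, 402.9 and 632.8 UMIs against 76.1, 130 and 265.4 in tumor control. For Gm26917 they were higher from the shallowest cells on. Its mean in tumor control was 3.25, 2.83, 2.61 and 2.59 UMIs per high-mt cell over the first 4 bins, against 1.03, 0.747, 0.470 and 1.33 per low-mt cell. In tumor D-CAN it was 5.43, 5.65, 5.55 and 2.73 against 0.982, 0.353, 0.477 and 0.992. High-mt tumor cells thus held more Gm26917 per cell in each of the 4 bins, with classes mixed in each bin.

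**Figure D3:**
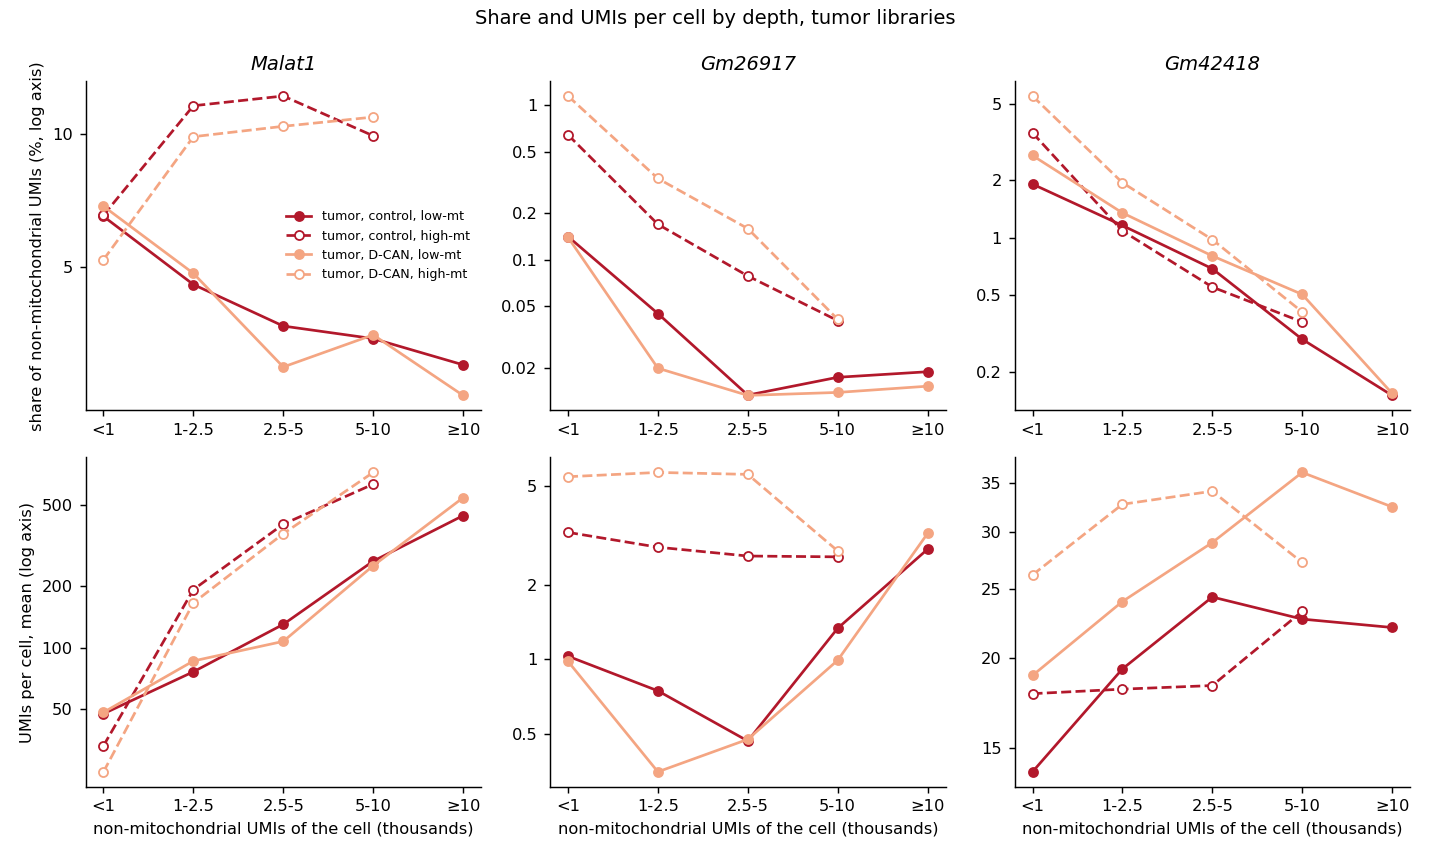
Share of non-mitochondrial UMIs (%, upper row) and mean UMIs per cell (lower row) of Malat1, Gm26917 and Gm42418 in the tumor libraries, by non-mitochondrial UMIs of the cell (x axis, in units of 1000), on log y axes, with low-mt cells as solid lines and filled points and high-mt cells as dashed lines and open points. With all classes together, Malat1 of high-mt cells lay above low-mt cells from 1000 UMIs on, and the Gm42418 shares of both sides fell with depth.

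With depth held within bins, cancer cells kept a higher Malat1 share when high-mt and lost most of the Gm42418 difference. Within bins the Malat1 ratio was 3.32 in tumor control and 2.32 in tumor D-CAN, while that of Gm42418 was 1.04 and 1.35. Neat1 gave 2.89 and 3.10, Gm26917 4.35 and 3.55, and Gm26870 6.61 and 3.46. Low-mt cancer cells are rare at low depth, and the D-CAN Malat1 value rests in part on 5 low-mt cells of 1000 to 2500 UMIs with 14.01% Malat1. With bins of at least 20 cells on each side, a choice made after these values were seen, Malat1 was 3.55 and 4.92, Gm42418 1.02 and 1.12, Neat1 2.79 and 6.12, Gm26917 3.29 and 6.51 and Gm26870 4.02 and 13.3. These D-CAN values rest in part on 21 low-mt cells of 2500 to 5000 UMIs with 0.339% Malat1. In the bin of 5000 to 10000 UMIs Malat1 was 9.90% against 3.35% in control (26 and 216 cells) and 11.5% against 3.775% in D-CAN (27 and 35 cells). Gm42418 there was 0.293% against 0.258% and 0.349% against 0.433%.
Outside cancer cells the depth-matched Malat1 ratio stayed under 2, at 1.32 and 1.02 in tumor control and D-CAN myeloid cells, 0.691 in tumor control stromal cells, and 1.48 and 1.58 in SAT control and D-CAN T or NK cells. In the tumor control myeloid cells it was 0.741 with bins of at least 20 cells. Of the 7 pairs with a value, Malat1 thus reached 2-fold at matched depth in the 2 cancer cell sets and in no other. The share of all genes that reach 2-fold at matched depth was not counted, so these calls cannot be read against it. The values outside cancer cells rest on 2 depth bins in tumor control myeloid cells and on 1 bin in each other set. With bins of at least 20 cells, tumor control stromal, tumor D-CAN myeloid and SAT D-CAN T or NK cells gave no value. Gm26917 kept ratios of 14.1 in tumor control myeloid cells and of 3.86 and 4.76 in SAT control and D-CAN T or NK cells, and was 1.15 in tumor D-CAN myeloid cells. SAT D-CAN B cells had too few shallow low-mt cells for a value.

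**Figure D4:**
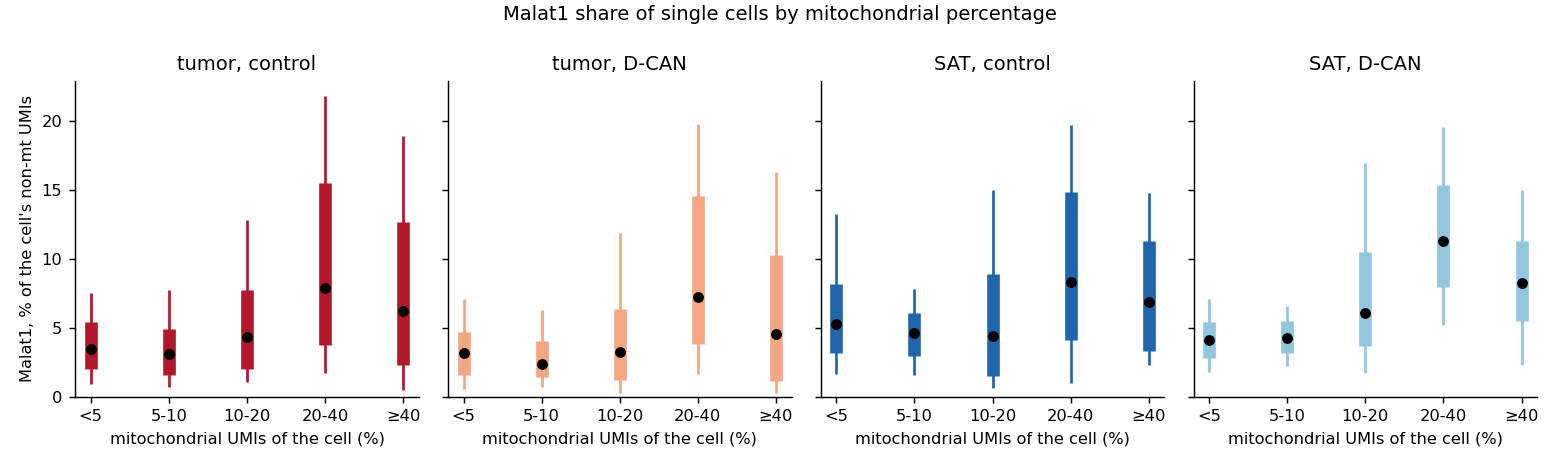
Malat1 share of single cells (%) by bin of mitochondrial percentage in each library, with the median as a point, the quartiles as a thick bar and the 10th and 90th percentiles as a thin line. The median was highest at 20 to 40% in each library, at 7.88%, 7.26%, 8.32% and 11.3%. Cells under 300 non-mitochondrial UMIs were left out, which took 93, 49, 14 and 31 cells from the bin of 40% or more.

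Gene lists of other RNAs were followed in the same cancer cells. The lists were chosen with earlier results of these data known, and where their RNAs lie in the cell was not measured. Of the nuclear long noncoding RNAs on a fixed list, the 2 others with enough UMIs were higher in tumor control along with Malat1 and Neat1. Kcnq1ot1 was 2.57-fold and Tug1 3.11-fold higher. Of 20 mRNAs for speckle and splicing proteins, 10 were at least 2-fold higher and 19 above 1 in tumor control, and 12 and 20 in tumor D-CAN. Ddx17, an RNA helicase, was 3.12-fold higher and Ccnl2, a cyclin of splicing kinases, 3.12-fold in tumor control, while Srrm1 was at 0.976. The list median was 0.98 and 1.16 on the log2 scale, against 0.33 and 0.38 for all genes tested.
The mRNAs of the list called cytosolic went the other way. None of 20 was above 1 in either library, with medians of -0.94 and -0.92 log2, and the glycolytic enzyme gene Gapdh was at 0.373 and Actb, for cytoplasmic actin, at 0.429 in tumor control. None of 79 ribosomal protein genes was above 1, with medians of -0.80 and -0.87. Of 20 mRNAs for proteins of the endoplasmic reticulum 14 and 13 were above 1, near the 66.3% and 67.5% of all genes tested that were. Their medians of 0.45 and 0.26 lay above that of all genes in control and below it in D-CAN, and the chaperone gene Hspa5 was at 1.91-fold in tumor control.
Within bins of depth the speckle list kept medians of 0.70 and 0.81 and the cytosolic list of -1.07 and -0.96, against -0.06 and -0.05 for all genes. The endoplasmic reticulum list also lay above all genes there, with medians of 0.31 and 0.48 and 15 of 20 above 1 in each library. The ribosomal RNA locus list had 4 genes with enough UMIs, which were Gm42418 and Gm26917 themselves, AY036118 and Lars2. Lars2 is a protein-coding gene of chromosome 9 that shares no 25-base word with Gm42418 or Gm26917. The 4 genes had medians of 2.24 and 2.64 without matching and 0.53 and 0.60 with it. AY036118 and Lars2 alone had medians of 2.33 and 2.64 without matching. Only 1 member of the satellite list, Gm26870 itself, had enough UMIs.

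In low-mt cells the 5 RNAs differed between classes, as levels on the share scale. Malat1 ranged from 2.65% in cancer cells of tumor D-CAN to 6.47% in myeloid cells of SAT D-CAN, where 13.7% of its UMIs came from 2 cells. It lay between 2.65% and 4.19% in the tumor classes and 3.31% and 6.47% in the SAT classes. Neat1 was at 0.0924% and 0.0807% in cancer cells (control, D-CAN) and 0.0656% and 0.0980% in SAT myeloid cells, and at 0.0151% and 0.0168% in SAT T or NK cells. Tumor endothelial cells were as low, at 0.0201% and 0.0133%. Cancer cells thus lay above SAT myeloid cells in control and below them in D-CAN. The D-CAN intervals (0.0787% to 0.0827% and 0.0903% to 0.106%) did not overlap, but they cover counting error only and not the spread between cells. Among these SAT D-CAN myeloid cells, 20 cells of 1000 to 2500 UMIs held 119 Neat1 UMIs, at 0.328%.
Gm26870 was the most uneven. It made up 0.0606% and 0.0535% in cancer cells, where 64.9% and 63.2% of cells held a UMI at median depths of 11528 and 18753. The other tumor classes lay between 0.000628% and 0.00364%, with a UMI in 3.34% to 8.70% of cells at median depths of 1580 to 6605. In SAT it was highest in endothelial cells, at 0.00509% and 0.0112%. Gm26917 stayed within a narrower range, from 0.00625% in stromal cells of tumor control to 0.0237% in T or NK cells of SAT D-CAN.
Gm42418 split the tissues. It was 0.179% and 0.161% in cancer cells, 0.502% to 1.01% in the other tumor classes, and 1.13% to 2.38% in SAT. Among low-mt cells of 1000 to 2500 UMIs only, the tumor classes with at least 20 such cells (myeloid, endothelial and stromal) lay between 1.12% and 1.29%. In that bin SAT myeloid cells lay at 1.301% and 1.004%, next to the tumor classes, and the other SAT classes between 1.87% and 2.21%. Cancer cells had too few cells in it for a value.

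**Figure D5:**
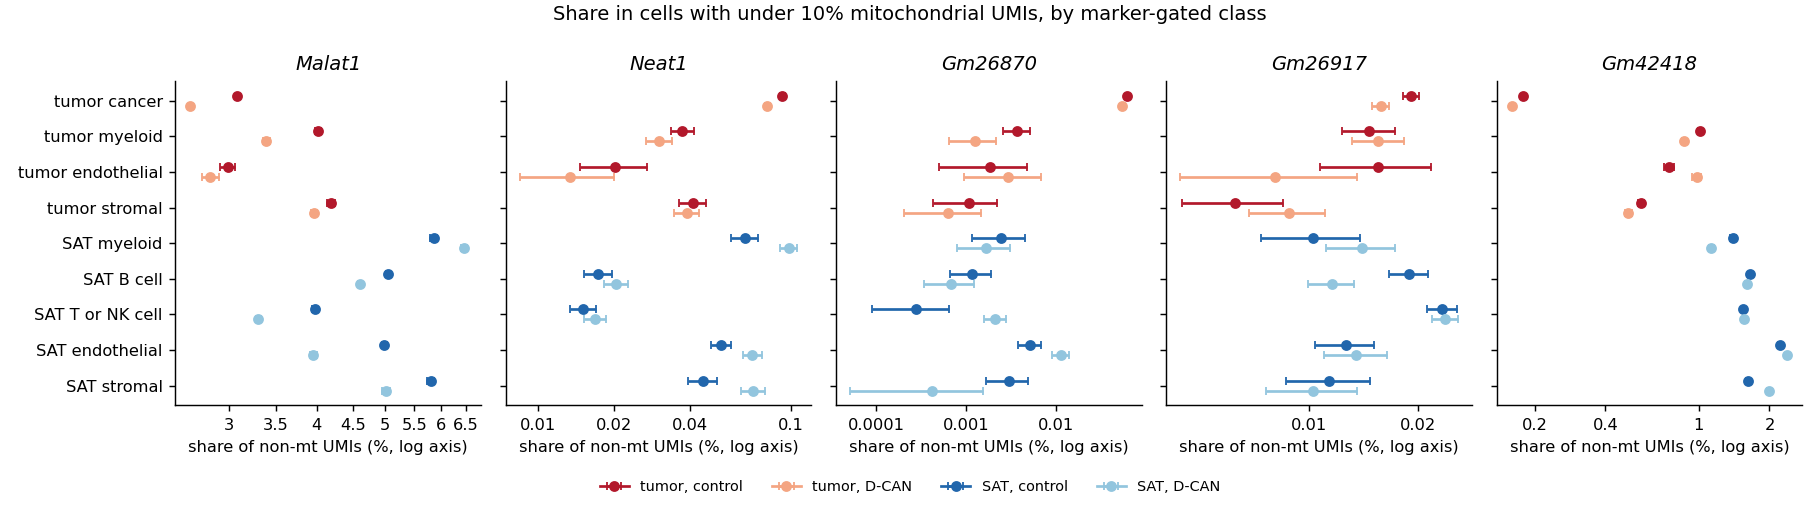
Share of each RNA (%, log axis) in low-mt cells of each marker-gated class, per library, with exact 95% counting intervals. Cancer cells were highest for Gm26870 and lowest for Gm42418, and the D-CAN point of Malat1 lay left of the control point in 8 of 9 classes.

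Between D-CAN and control, low-mt cells of 9 classes could be set side by side. Malat1 differed by less than 2-fold in all 9, with ratios of 0.794 to 1.11, and it was below 1 in 8, SAT myeloid cells being the exception. Neat1 (0.661 to 1.58), Gm26917 (0.521 to 1.41) and Gm42418 (0.810 to 1.304) also stayed within 2-fold in all 9. Of all genes tested, 0.406% of cancer, 0.502% of myeloid, 3.10% of endothelial and 0.451% of stromal genes in the tumor differed by 2-fold or more in either direction. In SAT these were 7.03% of myeloid, 0.824% of B cell, 0.301% of T or NK cell, 0.875% of endothelial and 4.25% of stromal genes.
Gm26870 passed 2-fold in 4 of the 9, always on few UMIs. Only in SAT endothelial cells among these 4 did it reach the 100 UMIs asked of all genes tested. Its ratio was 0.340 in tumor myeloid cells (12 D-CAN UMIs against 35, interval 0.161 to 0.670) and 0.142 in SAT stromal cells (2 against 15, interval 0.0158 to 0.613). It was 7.67 in SAT T or NK cells (51 against 5, interval 3.08 to 24.6) and 2.20 in SAT endothelial cells (82 against 46, interval 1.51 to 3.23). Depth moved with treatment here, since the median SAT endothelial cell held 5532 non-mitochondrial UMIs in D-CAN and 1123 in control. In SAT endothelial cells of 2500 to 5000 UMIs, Gm26870 was at 0.0172% in D-CAN and 0.00674% in control, from 20 and 13 UMIs. At 5000 to 10000 UMIs it was at 0.0117% and 0.005685%, from 33 and 13 UMIs. Malat1 in these bins was at 4.21% against 4.99% and 4.35% against 4.57%. The part of depth in the Malat1 and Gm26870 ratios was not tested. With 1 library a group, treatment cannot be told apart from library.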

How the data were processed

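Single-cell RNA-seq was measured in 4 libraries, 1 per group, captured with a 10x Genomics 3′ kit (v3 in the labels, v3.1 in the methods). The deposited values are raw UMI counts per gene and cell, which the authors made with Cell Ranger 3.1.0 (the SAT D-CAN table names 3.0.2) and STAR 2.6 on mm10 with Ensembl 93 genes, per the submitters' processing notes and the table headers. The tables hold called cells only, with 500 UMIs or more, and were used without further filtering. Libraries held 17996284, 15672787, 6667064 and 7444729 UMIs (tumor control, tumor D-CAN, SAT control, SAT D-CAN).

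Counts were summed over cells in Python 3.11.15 with numpy 2.4.6, pandas 2.3.3 and scipy 1.17.1. A cell was assigned to 1 of 6 classes (cancer, myeloid, B cell, T or NK cell, endothelial, stromal) when it held at least 2 distinct markers of it and at least 2 times those of the next class. Mitochondrial percentage was cut at 5, 10, 20 and 40 and non-mitochondrial depth at 1000, 2500, 5000 and 10000. Comparisons needed 20 cells on each side, or 5 in each depth bin. Depth-matched ratios divide observed UMIs by those expected from low-mt cells of the same bin. For ratios over all genes 0.5 UMI was added and 100 UMIs over both sides were required. Intervals are exact Clopper-Pearson or conditional binomial ones at 95% and cover counting error only, and a count of 0 was bounded at 3 counts. With 1 library per group no test was run. No doublet caller was run, and leaving out the deepest 2% of cells is an alternative. Gene ratios were tested on simulated data with known folds.

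Named genes are the 5 RNAs, members of the fixed lists, the 5 genes most like each RNA over library, class and mitochondrial bins, and the 5 highest and lowest ratios of each library. A few genes that this rule names are not reported here. The members and lists were chosen with earlier results of these data known. Sequences are from GENCODE vM21 transcripts on GRCm38, and RefSeq gene names from GRCm38.p6. RefSeq promoters were not used here.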

Additional observations from a re-analysis of the deposited data

Results flagged for a closer look

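For 3 combinations of RNA and class, the ratio of D-CAN to control in low-mt cells lay below 1 in the tumor and above 1 in SAT, with counting intervals on opposite sides of 1. In myeloid cells Malat1 was at 0.845 in the tumor and 1.11 in SAT, and Neat1 was at 0.808 and 1.49. In stromal cells Gm42418 was at 0.886 and 1.22. With 1 library per group the difference between tissues was not tested, and none of these ratios reached 2-fold. Depth differed between the libraries. Within bins of depth, Malat1 in myeloid cells was at 0.988 in the tumor and 1.06 in SAT, Neat1 at 0.791 and 1.81, and Gm42418 in stromal cells at 1.34 and 1.69, so the tumor value of Gm42418 turned. Among myeloid cells of 1000 to 2500 UMIs alone, Malat1 was at 4.29% in D-CAN and 4.22% in control in the tumor, and at 4.46% (20 cells) and 6.67% (33 cells) in SAT, the reverse of the pattern over all depths. Neat1 there was at 0.0371% and 0.0376% in the tumor and at 0.328% and 0.113% in SAT, where the SAT D-CAN value passes 2-fold on 119 UMIs against 58.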

How the results depend on the processing

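No paired analysis was possible because each group is 1 library. The number of class and library pairs (of 8) with a 2-fold higher share in high-mt cells was 6 for Malat1, 7 for Neat1, 5 for Gm26870, 8 for Gm26917 and 5 for Gm42418. A high-mt mark of 40% left 3 pairs with enough cells, of which 3, 2, 3, 3 and 2 were called. A gate of 3 markers left 4 pairs, with 3 called for Neat1, 2 for Gm26870, 4 for Gm26917 and 2 for Gm42418. Within bins of depth, which gave values in up to 7 pairs, 2 were called for Malat1, 5 for Neat1, 3 for Gm26870, 5 for Gm26917 and 1 for Gm42418, and Neat1 lost its call in tumor D-CAN myeloid cells (1.09). With 20 cells in each bin side, added later, 4 pairs gave values and 2, 4, 3, 4 and 0 were called. A total without ribosomal protein genes left 3 for Malat1. Among ratios called at 2-fold, direction turned for Neat1 in tumor control stromal cells within depth bins (0.913) and for Malat1 in tumor control myeloid cells with 20 cells per bin side (0.741). For D-CAN against control (of 9), means of per-cell shares gave 1 for Neat1, 7 for Gm26870 and 2 for Gm26917 in place of 0, 4 and 0, and thinning to 300 UMIs gave 2 for Neat1 and 3 for Gm26917. Ratios under 2-fold crossed 1 in 8 high-mt cases, Malat1 in tumor control stromal cells (0.691) and Gm42418 in SAT D-CAN T or NK cells (0.560) among them within depth bins, and in 21 D-CAN cases. Apart from the lower number of pairs, the cause of these shifts was not tested. The share of all genes that passed 2-fold was not counted under any alternative, so calls there cannot be read against it. Of the single high-mt ratios under alternatives, 194 stayed inside the counting interval of the reported value, 149 left it and 2 called ones turned. Of the D-CAN ratios 304 stayed and 97 left it.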

Other observations

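Some cancer cells had a low Malat1 share, among high-mt and low-mt cells alike. Of high-mt cancer cells, 22 of 322 in tumor control (6.83%, 4.33% to 10.2%) and 11 of 130 in tumor D-CAN (8.46%, 4.30% to 14.6%) held under 0.5% Malat1. These intervals overlap those of the low-mt cells, which are described here. Under 0.5% Malat1 were 62 of 727 low-mt cancer cells in tumor control (8.53%, exact 95% interval 6.601% to 10.8%) and 52 of 424 in tumor D-CAN (12.3%, 9.30% to 15.8%), a mark set after the values were seen. Neat1, Gm26870 and Gm26917 were lower in the same cells. Neat1 was at 0.0159% against 0.0968% in the rest in control and 0.0125% against 0.0852% in D-CAN. Gm26870 was at 0.0134% against 0.0633% and 0.0222% against 0.0556%, and Gm26917 at 0.00975% against 0.0197% and 0.00734% against 0.0163%. Gm42418 was not lower, at 0.244% against 0.175% and 0.244% against 0.155%. These cells were shallower, with a median of 6840 against 11824 UMIs in control and 6036 against 19852 in D-CAN, and held a median of 3 cancer markers against 4 in both libraries. Their median mitochondrial percentage was 5.95 against 6.75 in control and 4.07 against 6.45 in D-CAN.

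Over 72 sets of cells of a library, class and mitochondrial bin, which share libraries and differ in depth, genes among those most like each RNA were taken from 10511 genes by the Pearson correlation of log2 levels. Gm42418 went with Lars2 (0.95), AY036118 (0.94), Hspa1b (0.82) and Son (0.79), and with Gm26917 at 0.22. Over the tumor sets alone and the SAT sets alone, Gm26917 had higher values than over both, at 0.54 and 0.33. Lars2 had 0.96 and 0.94 there, AY036118 0.94 and 0.64, Hspa1b 0.79 and 0.36 and Son 0.86 and 0.56. Gm26917 went with Srsf1 (0.83), Rbm25 (0.83), Snrnp70 (0.82), Taf1d (0.80) and Luc7l2 (0.80), most of them genes for splicing proteins. Malat1 went with Mycbp2 (0.76), Prpf4b (0.73), Nktr (0.72), Cdk12 (0.71) and Krit1 (0.70). Neat1 had Capn8 (0.77), Ptprf, Efna5, Pyroxd2 and Meis1, and Gm26870 had Coro6 (0.86), Gpd1, Grhl2, Otof and Cdo1. Malat1 and Neat1 correlated at 0.68 over 34 tumor sets and 0.24 over 38 SAT sets.

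Over all cells of a library, the 5 genes with the highest high-mt to low-mt ratio were Gm26917 (8.67), Muc5b (8.51), Gm26825 (7.77), Ccdc187 (7.45) and Gm26699 (6.79) in tumor control and Scgb2a2 (19.7), Gm26917 (15.6), Muc5b (9.70), Ccdc187 (9.29) and Nalcn (7.73) in tumor D-CAN. In SAT control they included Ttn, Gm26870 (9.78), Des and Gm26917 (8.64), and in SAT D-CAN they were Gm26870 (12.9), Pf4, Gm32036, Sidt1 and Car3. The 5 lowest were Ndufa4l2, Actg2, Retnlg, Arg1 and Icam2 in tumor control and Dcn, Ppic, Tm4sf1, Mfap5 and Bgn in tumor D-CAN. In SAT control they were S100a9, S100a8, Ighg2b, Clu and Camp, and in SAT D-CAN S100a9, S100a8, Camp, Mfap5 and Meg3. Cell classes were mixed in all of these ratios, and the part of class mix was not tested. The Gm26870 ratios in SAT rest on few cells. Of 51 Gm26870 UMIs in high-mt SAT D-CAN cells, 34 lay in a single cell. Of 18 in high-mt SAT control cells, 6 lay in a single cell.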
